A study of Homo sapiens with 12 samples.

Results

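The 7 genes BAMBI, SOD3, EVX1, PCDH17, SPOCK2, HOXA13 and PCED1B were picked from the 18668 genes listed as the largest rises with enzalutamide. The cell line is 22Rv1, which derives from a castration-resistant prostate cancer. By fold change alone, the 7 genes ranked from 56 (BAMBI) to 247 (PCED1B) among the 17702 genes tested. They were chosen by their read counts with enzalutamide against vehicle, so their values in that comparison are given as a description, with no test. Cultures of 22Rv1, labelled wild type, received, for 24 h, either vehicle, enzalutamide, a degrader directed at the androgen receptor or an autophagy-activating ligand, with 3 biologically independent libraries in each of the 4 groups. The labels gave no doses and did not name the vehicle, and all groups were grown in medium with serum. All libraries come from 1 cell line. Poly(A)-selected RNA was sequenced to 5.55e+07 to 7.72e+07 counted reads per library. All 9 luminal prostate markers examined were present in every library, among them KRT8 at 429.6 to 852.3 CPM (read counts scaled to library size). The basal markers KRT5, KRT14 and TP63, the immune marker PTPRC and the endothelial markers PECAM1, VWF and CDH5 were not among the genes listed. Of 20 markers of other cell types, 9 were tested. The highest were SYP, the neuroendocrine marker synaptophysin, at 70.3 to 84.1 CPM, COL1A1, a collagen gene of stromal cells, at 9.58 to 12.7 CPM, and CD68, a macrophage marker, at 5.65 to 8.95 CPM.

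Enzalutamide binds the androgen receptor, a hormone-activated transcription factor, and blocks its action. Androgen signalling raises many prostate genes and lowers others, so blocking it can move transcripts either way. The 7 genes have varied roles. BAMBI encodes a membrane protein that resembles a type I receptor of bone morphogenetic protein (BMP) and transforming growth factor beta (TGF-beta) signalling but lacks the kinase domain, and it dampens that signalling. SOD3 encodes the secreted superoxide dismutase of the extracellular matrix, and SPOCK2 encodes testican-2, a secreted proteoglycan. PCDH17 encodes a protocadherin, a cell adhesion protein. EVX1 and HOXA13 encode homeobox transcription factors and lie near each other at one end of the HOXA cluster, and HOXA13 is needed for development of the distal limb and the urogenital tract. PCED1B encodes a protein with a predicted esterase domain whose function is little known.

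Promoter windows of 250 bases up to the annotated start were taken from RefSeq (GRCh38.p14) for all 7 genes, in 8 windows because SPOCK2 has 2 starts. The 4 windows printed here include that of BAMBI, which had the largest difference of the 7 with enzalutamide. The others are those of the nearby genes HOXA13 and EVX1, and of PCDH17, the gene whose window held an androgen receptor half-site. Capitals mark the half-site (AGAACA or its reverse complement TGTTCT), the CCAAT box (CCAAT or ATTGG) and the GC box (CCGCCC or GGGCGG), searched on both strands. Marked matches of different motifs do not overlap.
BAMBI, GRCh38.p14, chr10:28677271-28677520, plus strand: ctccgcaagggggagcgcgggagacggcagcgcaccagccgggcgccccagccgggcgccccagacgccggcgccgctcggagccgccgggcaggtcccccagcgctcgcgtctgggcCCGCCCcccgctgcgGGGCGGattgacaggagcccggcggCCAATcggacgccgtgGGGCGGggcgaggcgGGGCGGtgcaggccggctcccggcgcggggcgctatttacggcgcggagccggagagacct
HOXA13, GRCh38.p14, chr7:27200092-27200341, minus strand: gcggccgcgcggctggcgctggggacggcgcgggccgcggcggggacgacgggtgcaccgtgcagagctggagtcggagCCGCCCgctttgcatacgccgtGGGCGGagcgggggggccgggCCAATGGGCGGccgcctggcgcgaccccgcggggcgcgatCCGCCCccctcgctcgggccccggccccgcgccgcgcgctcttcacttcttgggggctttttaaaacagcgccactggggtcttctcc
EVX1, GRCh38.p14, chr7:27242552-27242801, plus strand: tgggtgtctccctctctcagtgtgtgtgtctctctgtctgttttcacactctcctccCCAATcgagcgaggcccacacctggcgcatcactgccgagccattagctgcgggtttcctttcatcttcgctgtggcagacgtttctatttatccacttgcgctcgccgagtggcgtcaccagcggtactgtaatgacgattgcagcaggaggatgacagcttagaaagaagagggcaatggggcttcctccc
PCDH17, GRCh38.p14, chr13:57631494-57631743, plus strand: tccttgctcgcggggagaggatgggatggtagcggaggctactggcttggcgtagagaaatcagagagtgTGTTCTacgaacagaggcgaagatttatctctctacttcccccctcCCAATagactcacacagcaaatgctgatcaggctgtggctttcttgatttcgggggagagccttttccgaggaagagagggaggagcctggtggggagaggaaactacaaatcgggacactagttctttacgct

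An exact copy of the full androgen response element, AGAACA followed after 3 bases by TGTTCT, was in 0 of the 8 windows. It was in 1 of the 35116 promoter windows of the same length, so nothing is read from its absence here. Inexact copies were not searched. The half-site was in 1 of the 8, 180 bases before the PCDH17 start, and in 12.4% of all windows. A CCAAT box was in 5 of the 8 windows (SOD3, HOXA13, EVX1, BAMBI and PCDH17) and in 32% of all. GC boxes were in 3 of the 8 (HOXA13 and BAMBI with 4 each, and PCED1B with 1) and in 42.6% of all, and the TATA box letters TATAAA or TTTATA were in 0 of the 8 and in 10.7% of all. The windows of BAMBI (81.2% G and C, 41 CpG) and HOXA13 (78.0%, 40 CpG) lay above the median of all windows (58.0%, 11 CpG), whereas those of PCDH17 (52.8%, 10 CpG) and EVX1 (55.6%, 13 CpG) were close to it. A match of letters is a description of the sequence, and binding was not measured.

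The first comparison, enzalutamide against vehicle, is the one from which the genes were taken. All 7 had every enzalutamide library above every vehicle library, an ordering found in 8.87% of the 17702 genes tested, and nothing is read from that count because it was part of the choice. Their folds ran from 1.51 for PCED1B to 1.88 for BAMBI. In these bulk libraries, more cells with a transcript and more of it per cell cannot be told apart.

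BAMBI was at 3.89, 4.08 and 4.34 CPM in the 3 vehicle libraries and at 7.99, 7.53 and 7.64 CPM in the 3 enzalutamide libraries (replicates 1, 2 and 3). With the ligand it was at 4.15, 3.95 and 3.63 CPM, and with the degrader at 6.26, 6.30 and 5.63 CPM. The enzalutamide libraries were the highest, the degrader libraries lay between them and the others without overlap, and vehicle and ligand overlapped. The log2 fold change with enzalutamide was 0.91 (SE 0.09).

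SPOCK2, the most abundant of the 7, was at 42.9, 40.6 and 39.9 CPM with vehicle and at 67.8, 63.0 and 62.3 CPM with enzalutamide. It was at 41.0, 41.7 and 35.5 CPM with the ligand and at 55.9, 49.0 and 48.9 CPM with the degrader. The order of groups was that of BAMBI, with the degrader libraries in a range of their own between enzalutamide and the overlapping vehicle and ligand libraries. Its log2 fold change with enzalutamide was 0.64 (SE 0.07).

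EVX1 was at 5.48, 5.59 and 4.56 CPM with vehicle and at 9.15, 9.92 and 9.09 CPM with enzalutamide. It was at 6.0, 5.51 and 5.01 CPM with the ligand and at 6.63, 6.35 and 6.70 CPM with the degrader. The degrader libraries again lay between, but closer to vehicle and ligand than to enzalutamide. The log2 fold change with enzalutamide was 0.85 (SE 0.09).

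PCDH17 was at 4.70, 4.09 and 4.29 CPM with vehicle and at 7.28, 6.94 and 7.25 CPM with enzalutamide. It was at 4.77, 5.16 and 5.44 CPM with the ligand and at 6.53, 7.36 and 7.08 CPM with the degrader. Here the enzalutamide and degrader ranges overlapped, and the ligand libraries all lay above the vehicle libraries, by a small margin. The log2 fold change was 0.71 (SE 0.09) with enzalutamide and 0.68 (SE 0.09) with the degrader.

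HOXA13 was at 6.51, 6.53 and 5.96 CPM with vehicle and at 9.34, 9.88 and 9.97 CPM with enzalutamide. It was at 6.46, 6.67 and 8.0 CPM with the ligand and at 7.59, 9.28 and 9.80 CPM with the degrader. Enzalutamide and degrader overlapped, and so did degrader and ligand, since ligand replicate 3 was higher than degrader replicate 1. The log2 fold change was 0.62 (SE 0.10) with enzalutamide and 0.49 (SE 0.10) with the degrader.

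SOD3 was at 6.36, 5.64 and 5.81 CPM with vehicle and at 10.9, 10.5 and 12.1 CPM with enzalutamide. It was at 6.47, 8.14 and 5.55 CPM with the ligand and at 6.76, 5.46 and 5.61 CPM with the degrader. Only the enzalutamide libraries stood apart, and the ranges of the 3 other groups overlapped. The log2 fold change was 0.91 (SE 0.12) with enzalutamide and 0.00 with the degrader (95% confidence interval -0.26 to 0.26).

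PCED1B was at 5.74, 4.75 and 5.49 CPM with vehicle and at 7.80, 8.02 and 8.34 CPM with enzalutamide. It was at 6.41, 6.49 and 5.60 CPM with the ligand and at 6.12, 5.03 and 5.90 CPM with the degrader. As for SOD3, the 3 groups without enzalutamide overlapped. The log2 fold change was 0.60 (SE 0.10) with enzalutamide and 0.09 with the degrader (interval -0.12 to 0.30).

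**Figure D1:**
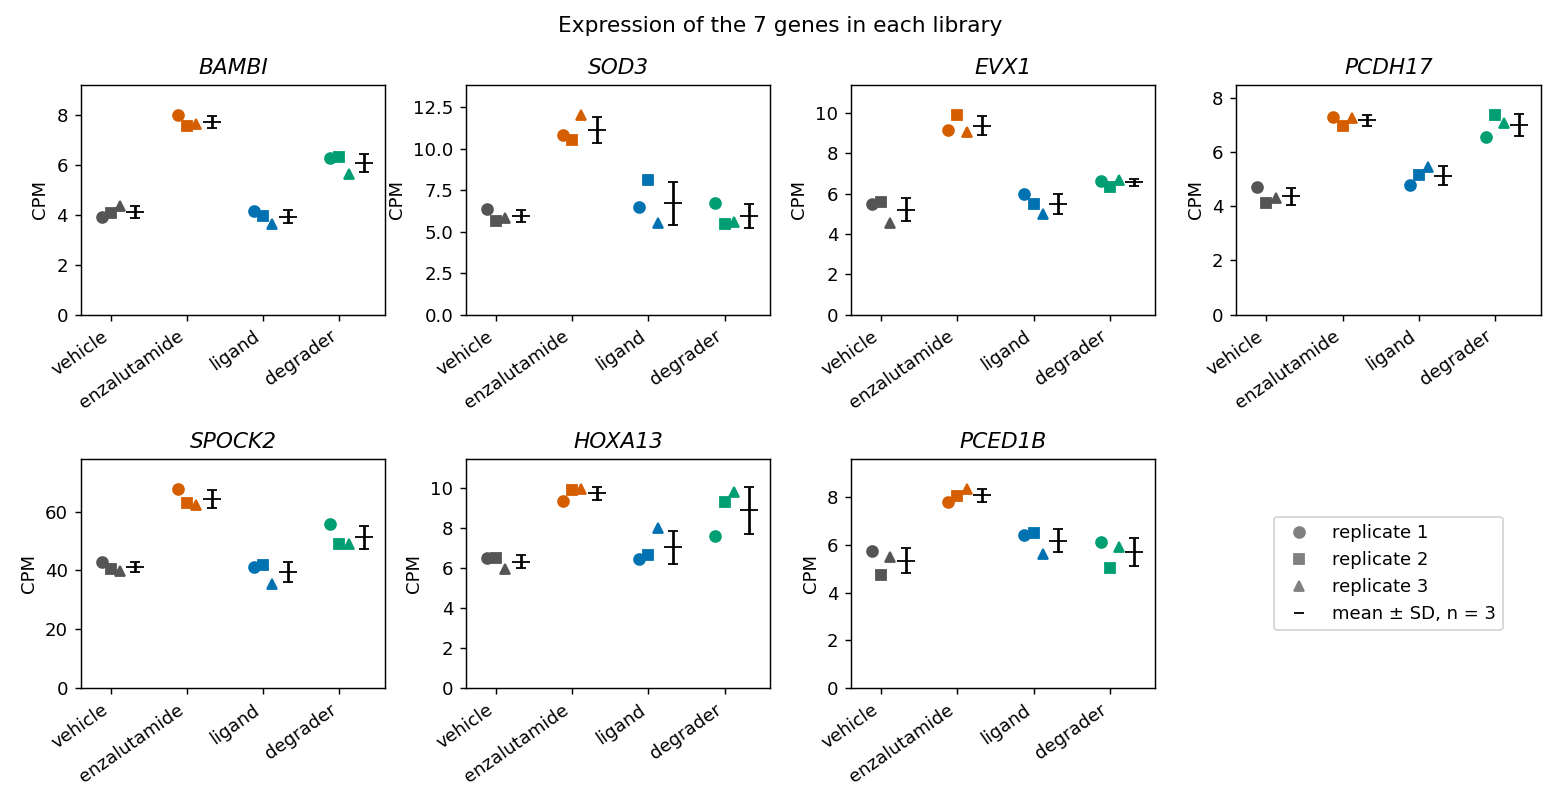
CPM (vertical axis from 0) of each of the 7 genes in the 12 libraries by treatment (horizontal axis), with symbols for replicates and the mean ± SD (n = 3) in black. In every panel the enzalutamide libraries lie above the vehicle libraries, and the degrader libraries overlap the vehicle libraries for SOD3 and PCED1B and lie above them for the other 5.

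The degrader values thus fell into 3 kinds, described here without a test because all of these differences use the vehicle or the enzalutamide libraries that chose the genes. Degrader and enzalutamide libraries overlapped for PCDH17 and HOXA13. For BAMBI, SPOCK2 and EVX1 the degrader libraries lay below all enzalutamide and above all vehicle libraries, and for SOD3 and PCED1B they lay below all enzalutamide libraries in ranges that overlapped those of the vehicle libraries. The degrader against vehicle log2 fold change was 0.57 for BAMBI (SE 0.09), 0.33 for EVX1 (SE 0.09) and 0.32 for SPOCK2 (SE 0.07). For 5 of the 7 every degrader library lay below every enzalutamide library, as for 22.5% of all genes tested. Of all genes tested, 23.1% had every degrader library above every vehicle library, as had 5 of the 7. SOD3 was 1.87-fold lower with the degrader than with enzalutamide, EVX1 1.43-fold, PCED1B 1.42-fold, BAMBI 1.27-fold and SPOCK2 1.25-fold.

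With the ligand the 7 log2 fold changes against vehicle ran from -0.07 (BAMBI) to 0.23 (PCDH17), with a median of 0.15 beside -0.0034 over all genes tested. PCDH17 alone of the 7 had no overlap with vehicle, an ordering that 5.61% of all genes showed in that direction. These values share the vehicle libraries with the choice of the genes.

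**Figure D2:**
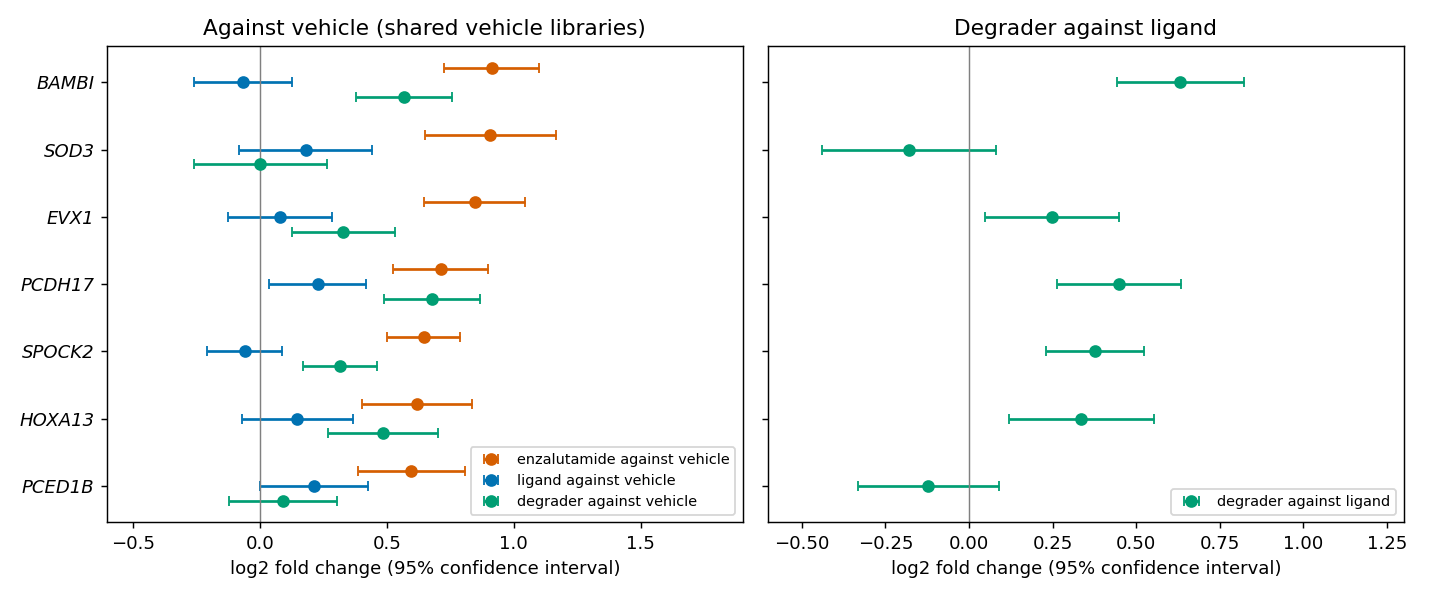
Log2 fold changes (horizontal axis, with 95% confidence intervals) of the 7 genes (vertical axis) for each compound against vehicle (left) and for degrader against ligand (right). On the left, enzalutamide runs from 0.60 to 0.91 by the choice of the genes, and the ligand stays between -0.07 and 0.23. On the right, BAMBI is highest at 0.63 and SOD3 lowest at -0.18.

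The second comparison, degrader against ligand, asked whether the compound that targets the androgen receptor differed from the ligand. None of the libraries compared had served to choose the genes. The edgeR p-values still use a spread estimated over all 12 libraries, the vehicle and enzalutamide libraries among them. In this comparison BAMBI, SPOCK2, PCDH17 and HOXA13 rose, and 0 of the 7 fell by edgeR (0 also at an unadjusted p under 0.05, by DESeq2 and by limma-voom). BAMBI, SPOCK2 and PCDH17 kept their calls in a fit of these groups alone. The edgeR background was 14.3% of genes higher and 14.2% lower at a Benjamini-Hochberg adjusted p under 0.05 over the 17702 genes. BAMBI was 1.55-fold higher (log2 fold change 0.63, SE 0.09, edgeR adjusted p = 6.53e-05), with all 3 degrader libraries above all 3 ligand libraries. That ordering was found for BAMBI, EVX1, PCDH17 and SPOCK2, and for 20.1% of all genes. PCDH17 was 1.37-fold higher (0.45, SE 0.09, edgeR adjusted p = 0.00111) and SPOCK2 1.3-fold higher (0.38, SE 0.07, edgeR adjusted p = 0.000647), both without overlap.

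HOXA13 was 1.26-fold higher (0.34, SE 0.10, edgeR adjusted p = 0.0207) with overlapping libraries. Its call was lost without ligand replicate 1 (adjusted p = 0.0988), ligand replicate 2 (0.0769), degrader replicate 2 (0.0849) or degrader replicate 3 (0.107), and with a fit of these groups alone (0.0545). EVX1 was at 0.25 (interval 0.05 to 0.45, adjusted p = 0.0592) and passed without ligand replicate 1 (0.0418), and all its degrader libraries lay above the ligand libraries. SOD3 was at -0.18 (interval -0.44 to 0.08, adjusted p = 0.303) and PCED1B at -0.12 (interval -0.33 to 0.09, adjusted p = 0.397). Without ligand replicate 2, the library in which SOD3 reached 8.14 CPM, SOD3 was at -0.02. In the same comparison 7 of the 9 luminal markers were lower, led by KLK2 and KLK3 (both -0.77), with a median log2 fold change of -0.33. Against vehicle 3 of the 9 were lower with enzalutamide, 6 with the degrader and 1 with the ligand. The shares of all genes called lower were 1.09%, 16.4% and 0.0339% in that order. The part of these markers in the results was not tested.

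Across the genes called higher with enzalutamide, 62 in all, 24 were also called higher with the degrader against the ligand, which is 38.7% of the enzalutamide calls and 0.947% of the 2535 genes called higher in the other. These comparisons share no library, but both use the spread estimated over all 12 libraries. Among the 55 called genes outside the 7, 20 were higher (36.4%) and 6 lower (10.9%), beside 14.3% higher and 14.2% lower of all genes tested. The median log2 fold change of these 55 was 0.10, beside 0.01 over all genes. The Pearson correlation of both sets of log2 fold changes across the 17702 genes, which are not independent replicates, was 0.09.

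Among the 62 genes called higher with enzalutamide, the 7 took ranks 1 to 4, 7, 10 and 11 by log2 fold change. Over all 17702 genes tested, called or not, their ranks ran from 56 to 247. None of the 62 reached a log2 fold change of 1, and 0.35% of genes tested were called higher in this comparison. After asking for 5 CPM or more in the higher group, no overlap and no uncharacterised symbol, 55 of the 62 remained. Of these 55, the 7 took ranks 1 to 5, 7 and 8. BTG2, an antiproliferative gene, held rank 6 at 0.62 and is not among the 7. The last member, PCED1B, was at 0.60, and the next gene below it was NFKBIZ, a regulator of NF-kappaB signalling, at 0.58. BTG2 is named here because its rank was seen. BTG2 was at 21.5 ± 1.45 CPM in vehicle, 33.0 ± 1.63 in enzalutamide, 20.7 ± 0.599 in ligand and 22.4 ± 0.686 in degrader libraries, so that only enzalutamide stood out. NFKBIZ was at 24.99 ± 0.474, 37.4 ± 0.246, 23.6 ± 0.927 and 35.8 ± 0.479 CPM in the same order (mean ± SD, n = 3), with enzalutamide and degrader both high.

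**Figure D3:**
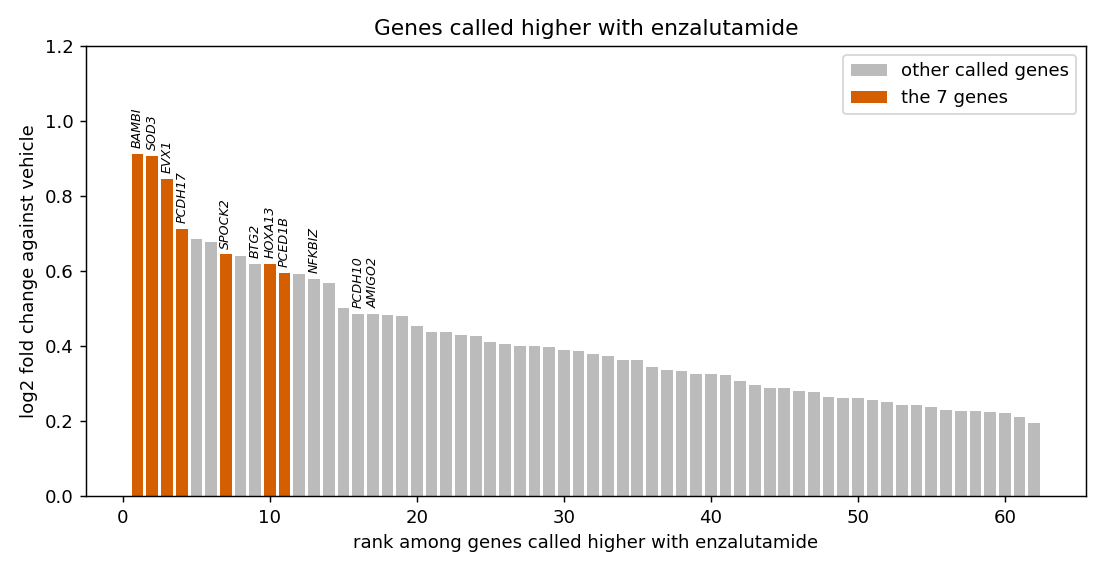
The 62 genes called higher with enzalutamide against vehicle, ranked (horizontal axis) by log2 fold change (vertical axis, from 0), with the 7 genes in orange and others in grey. The unlabelled grey bars above PCED1B are NRG3, PILRB and B3GALT5, at 2.04 to 2.36 CPM with enzalutamide. The values fall off without a step below PCED1B at 0.60.

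Levels between genes were compared in TPM, the deposited transcript abundances scaled to library size and transcript length. With vehicle the order was SPOCK2 at 16.2 ± 0.292 TPM, SOD3 at 8.55 ± 0.337, PCED1B at 5.38 ± 0.539, BAMBI at 4.96 ± 0.377, EVX1 at 3.72 ± 0.382, HOXA13 at 2.58 ± 0.118 and PCDH17 at 1.07 ± 0.0511 (mean ± SD, n = 3). PCED1B and BAMBI had overlapping vehicle libraries, and the other neighbours in that order did not overlap. With enzalutamide BAMBI, at 9.34 ± 0.139 TPM, lay above PCED1B, at 8.68 ± 0.416 TPM, and the rest of the order was unchanged. For PCED1B the scales differed: mean CPM was higher with the ligand (6.17 ± 0.493) than with the degrader (5.68 ± 0.579), and mean TPM was lower (5.53 ± 0.416 against 5.98 ± 0.952).

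Over the 12 libraries the 21 pairs among the 7 genes had Pearson correlations of log2 CPM from 0.48 to 0.97, with a median of 0.79. These values contain the difference between groups that chose the genes. SPOCK2 and BAMBI were the closest pair (0.97), followed by SOD3 and PCED1B (0.94), SPOCK2 and EVX1 (0.94), and PCDH17 and HOXA13 (0.94). With group means removed, the median was -0.09 and the range -0.82 to 0.75. SOD3 with SPOCK2 (0.75), SOD3 with PCED1B (0.71) and PCDH17 with HOXA13 (0.63) were the highest of these, and the lowest were HOXA13 with SPOCK2 (-0.82) and BAMBI (-0.78). Each within-group value rests on 12 libraries and 8 residual degrees of freedom.

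**Figure D4:**
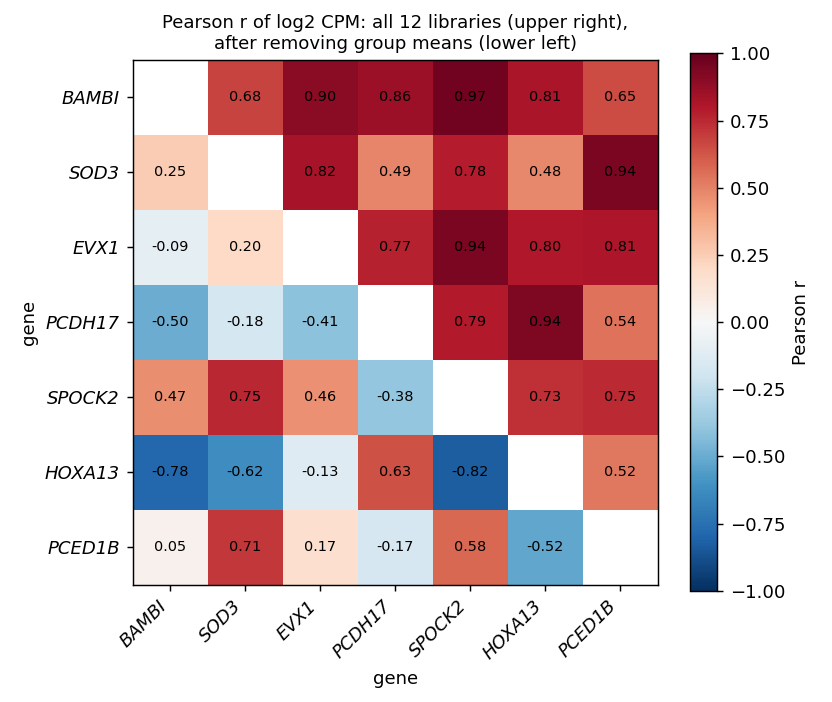
Pearson correlations of log2 CPM between each pair of the 7 genes (both axes), over all 12 libraries (upper right) and after the mean of each group was subtracted (lower left), with colour from -1 to 1. All upper right values are positive, from 0.48 to 0.97, and the lower left values run from -0.82 to 0.75.

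Among 13722 other genes at a mean of at least 1 CPM, those most like each of the 7 over the 12 libraries were often other members. These correlations contain the difference between groups that chose the 7, so nothing is read from that. The genes outside the 7 named below were all among the 62 called higher with enzalutamide. Apart from members, BAMBI was closest to MYOF, the gene of the membrane protein myoferlin (Pearson r 0.96), and PRSS23, a secreted protease gene (0.96). PCDH17 (0.92) and HOXA13 (0.90) were also most like MYOF, then INAFM1 (0.91) and the nuclear receptor gene NR6A1 (0.89) in that order. MYOF was at 22.1 ± 0.439 CPM in vehicle, 25.8 ± 0.217 in enzalutamide, 22.3 ± 0.356 in ligand and 24.9 ± 0.143 in degrader libraries. EVX1 and SPOCK2 were both most like AKR1C2 (0.95 and 0.95) and AKR1C1 (0.94 and 0.94), near-identical genes of steroid-converting reductases whose reads the counting could have split. AKR1C2 was at 35.3 ± 1.86 CPM in vehicle, 49.2 ± 3.84 in enzalutamide, 33.3 ± 1.52 in ligand and 39.7 ± 1.96 in degrader libraries. SOD3 was most like HOXC12, another homeobox gene (0.94), and the kinase gene PRKCD (0.94), and PCED1B was most like RAP1GAP (0.94) and HOXC12 (0.89). HOXC12 was at 32.7 ± 1.25 CPM in vehicle, 43.2 ± 0.538 in enzalutamide, 34.3 ± 1.08 in ligand and 32.2 ± 1.34 in degrader libraries, and so shared with SOD3 the high level in the enzalutamide libraries alone.

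Of the genes that take part with BAMBI in BMP and TGF-beta signalling, 42 were tested, and with enzalutamide 1 rose and 3 fell by edgeR, where 1.44% of all genes were called (list median -0.01, all genes 0.00). The falls were PMEPA1, a target gene whose product restrains TGF-beta signalling (-0.63, SE 0.04, edgeR adjusted p = 1.13e-07), the type I receptor gene BMPR1B (-0.43, SE 0.07, 0.00205) and ID4, a target of BMP signalling (-0.26, 0.0234). The rise was the ligand gene BMP2 (0.27, 0.0384). ID4 lost its call without replicate 1 (0.0614) or 3 (0.143) of vehicle and without any 1 of the enzalutamide libraries (0.0664, 0.0913 and 0.124). BMP2 lost its call when any single vehicle library (0.121, 0.123 and 0.143 for replicates 1, 2 and 3) or enzalutamide library (0.129, 0.0825 and 0.172) was left out. PMEPA1 was at 398.9 ± 14.3 CPM with vehicle and 257.0 ± 3.86 with enzalutamide, and at 444.1 ± 8.07 with the ligand and 424.6 ± 14.0 with the degrader, so that the low level was in the enzalutamide libraries. The type I receptors, which BAMBI resembles, lay on both sides of BAMBI, at 4.96 ± 0.377 TPM with vehicle. Above it were ACVR1B at 25.7 ± 0.571 TPM, BMPR1A at 17.9 ± 0.970 TPM and BMPR1B at 14.0 ± 0.874 TPM with vehicle. Below it were TGFBR1 at 3.36 ± 0.449 TPM and ACVR1 at 3.19 ± 0.169 TPM with vehicle.

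With the degrader against vehicle, where 32.7% of all genes were called, 10 of the 42 rose and 4 fell (median 0.08, all genes 0.01). The rises were led by ID2, a BMP target (0.47), the ligand subunit gene INHBA (0.74), SMAD9, a transducer of BMP signals (0.41), and the co-receptor gene TGFBR3 (0.56). The falls were TGFB3 (-0.61), BMP6 (-0.48) and TGFB1 (-0.77), all ligand genes, and BMPR1B (-0.19). TGFB1 lost its call without vehicle replicate 1 (0.0519) or degrader replicate 3 (0.0627), and BMPR1B without replicate 2 (0.113) or 3 (0.141) of vehicle, or 1 (0.165) or 2 (0.107) of degrader.

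Of 20 genes of superoxide and peroxide enzymes, the relatives of SOD3, 0 were called with enzalutamide by edgeR (1 at an unadjusted p under 0.05, 0 by DESeq2 and 0 by limma-voom). SOD1, the cytosolic superoxide dismutase gene, was at 0.07 (interval -0.05 to 0.18) with enzalutamide, and SOD2, the mitochondrial one, of -0.06 (interval -0.17 to 0.05), beside 0.91 for SOD3. At 356.3 ± 10.7 TPM for SOD1 and 34.8 ± 2.68 TPM for SOD2 with vehicle, both lay above SOD3 at 8.55 ± 0.337 TPM. With the degrader 2 of the 20 rose and 9 fell (median -0.14), where 16.4% of all genes were called higher and 16.4% lower with a median of 0.0057. PRDX5 (0.77) and GPX8 (0.47), genes of peroxidases, rose, and the falls were led by TXN, the thioredoxin gene (-0.39), and the peroxiredoxin genes PRDX2 (-0.32), PRDX1 (-0.32) and PRDX3 (-0.23). SOD1 was among the falls (-0.19, edgeR adjusted p = 0.0104), a call lost without degrader replicate 2 (0.0529).

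HOXA13 and EVX1 lie in a row of related genes, most of which were measured. Of 25 HOX genes, cluster RNAs and cofactors apart from these, 0 were called with enzalutamide by edgeR (6 at an unadjusted p under 0.05, 2 by DESeq2, both higher, and 0 by limma-voom), with a median of 0.13. The list did not hold every HOX gene: HOXC12, outside it, was called higher with enzalutamide (0.40). HOTTIP, a noncoding RNA gene between HOXA13 and EVX1, was at 0.61 (interval 0.14 to 1.09, edgeR adjusted p = 0.308) at 0.621 ± 0.0472 CPM with vehicle and 0.954 ± 0.0872 with enzalutamide. HOXA11-AS, on the other side of HOXA13, was at 0.71 (interval 0.12 to 1.29, edgeR adjusted p = 0.369), also at under 1 CPM. Further into the cluster HOXA11 was at -0.16 (interval -0.58 to 0.27), HOXA10 at 0.26 (0.10 to 0.41, adjusted p = 0.135), HOXA9 at 0.08 (-0.12 to 0.28) and HOXA5 at 0.06 (-0.10 to 0.23). Whether the counting used strand is not given in the sources used here, so reads of HOXA13 and of overlapping antisense transcripts may not be told apart.

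**Figure D5:**
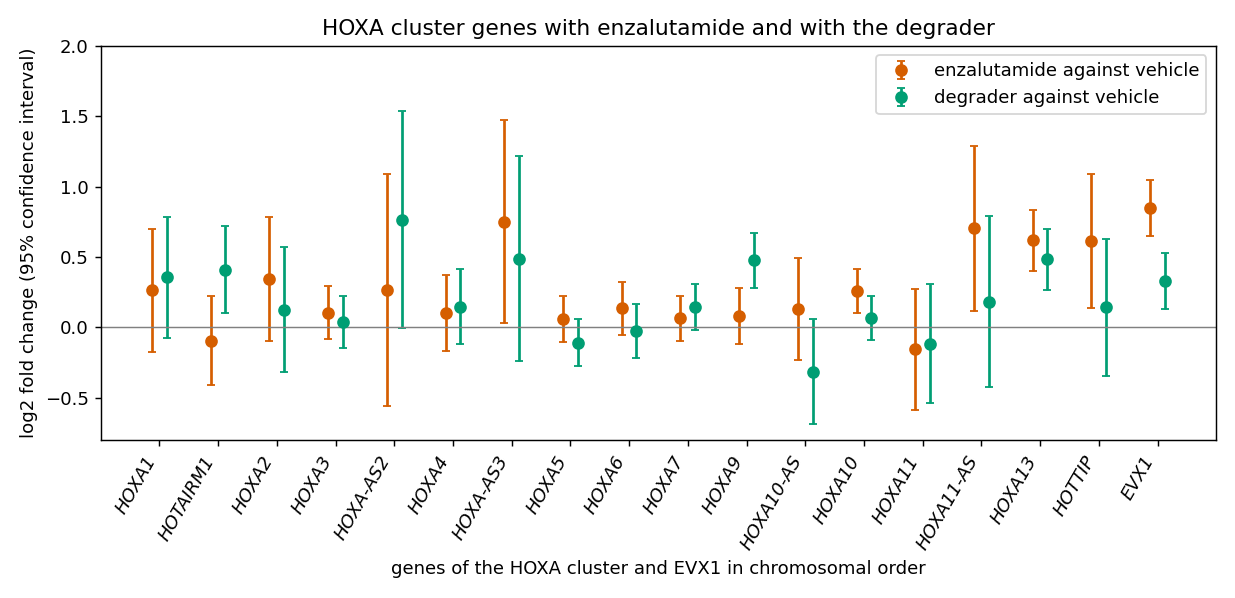
Log2 fold changes against vehicle (vertical axis, with 95% confidence intervals) of HOXA cluster genes and EVX1 in their order on chromosome 7 (horizontal axis), for enzalutamide (orange) and the degrader (green). HOXA13 at 0.62 and EVX1 at 0.85 are members chosen for their enzalutamide values, HOXA9 is higher with the degrader (0.48), and the wide intervals belong to genes near or under 1 CPM.

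With the degrader against vehicle, HOXA9 (0.48, SE 0.09, edgeR adjusted p = 0.000762) and the noncoding RNA gene HOTAIRM1 (0.41, 0.0391) rose and HOXB13, a group 13 relative of HOXA13 and a prostate lineage gene, fell by 0.32 (4.51e-05). With enzalutamide HOXB13 was at 0.03 (interval -0.06 to 0.13). HOXC13, another group 13 relative, was at 14.4 ± 1.27 CPM with vehicle and 18.2 ± 1.51 with enzalutamide, and was not called by edgeR. HOTAIRM1 lost its call without replicate 2 (0.103) or 3 (0.135) of vehicle, or any 1 of the degrader libraries (0.0984, 0.0668 and 0.0765).

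Of 18 genes of non-clustered protocadherins and of the actin-regulating WAVE complex, to which some protocadherins bind, PCDH10 rose with enzalutamide (0.49, SE 0.09, edgeR adjusted p = 0.007) and 0 fell. PCDH10, a close relative of PCDH17, was at 6.2 ± 0.751 CPM in vehicle, 8.68 ± 0.283 in enzalutamide, 6.64 ± 0.349 in ligand and 6.61 ± 0.319 in degrader libraries. PCDH10 thus stood out with enzalutamide, and PCDH17 with enzalutamide and degrader. PCDH19, another relative, was at 5.996 ± 0.635, 6.98 ± 0.287, 6.62 ± 0.825 and 10.0 ± 0.473 CPM in the same order. With the degrader against vehicle 3 rose, PCDH19 (0.74), ABI1 (0.26) and NCKAP1 (0.19), and 4 fell, PCDH9 (-0.42), PCDH7 (-0.24), CYFIP2 (-0.23) and CYFIP1 (-0.14), the last 2 being WAVE complex genes. The call of NCKAP1 was lost without vehicle replicate 1 (0.0886) or degrader replicate 3 (0.0996), and that of PCDH9 without vehicle replicate 2 (0.0837) or degrader replicate 1 (0.0551). That of CYFIP1 was lost without replicate 1 (0.0655) or 3 (0.0524) of vehicle, or 2 (0.0709) or 3 (0.0585) of degrader.

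Of 13 genes of the SPARC family, to which SPOCK2 belongs, and of matrix proteases and their inhibitors, 0 rose and 1 fell with enzalutamide. The fall was that of SPOCK1, which encodes testican-1 (-0.44, SE 0.05, edgeR adjusted p = 0.000137), from 106.9 ± 4.90 CPM with vehicle to 78.8 ± 3.33 with enzalutamide, and it was at 108.5 ± 6.14 with the ligand and 81.6 ± 2.67 with the degrader. The testican genes SPOCK1 and SPOCK2 thus differed from vehicle in opposite directions under enzalutamide and under the degrader, and SPOCK1 was the more abundant at 45.4 ± 2.74 TPM with vehicle. SPOCK3 was not among the genes listed. With the degrader SMOC1, a SPARC relative (0.35), rose and 4 fell, SPOCK1 (-0.39), the membrane protease gene MMP17 (-0.40), FSTL1 (-0.27) and the protease inhibitor gene TIMP1 (-0.16). FSTL1 lost its call without vehicle replicate 1 (0.0775), and TIMP1 without vehicle replicate 1 (0.108) or degrader replicate 2 (0.0858).

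PCED1A, the relative of PCED1B, was at 0.09 with enzalutamide (interval -0.06 to 0.25) and at 0.21 with the degrader (adjusted p = 0.0327), a call lost without replicate 2 (0.057) or 3 (0.136) of vehicle, or 1 (0.0838) or 2 (0.0836) of degrader. Over all these lists, without the 7 members, 2 of 119 genes rose and 4 fell with enzalutamide (5.04% called, beside 1.44% of all genes). The lists were chosen with earlier results of these data known, so nothing is read from that share. With the degrader 19 rose and 22 fell (34.5%, close to the 32.7% of all genes), and 0 were called with the ligand by edgeR (13 at an unadjusted p under 0.05, 1 by DESeq2 and 0 by limma-voom), where 0.237% of all genes were called.

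The nearest tested genes on both sides of each member were taken by position alone, in a step that was added after values were seen. Of these 13 neighbours, AMIGO2, a cell adhesion gene beside PCED1B on chromosome 12, rose with enzalutamide (0.49, SE 0.09, edgeR adjusted p = 0.00427). AMIGO2 was at 4.99 ± 0.105 CPM in vehicle, 6.998 ± 0.266 in enzalutamide, 5.78 ± 0.299 in ligand and 7.80 ± 0.663 in degrader libraries, and so was high in both treatments whereas PCED1B was high in enzalutamide alone. The degrader against ligand difference of AMIGO2 was 0.43 (edgeR adjusted p = 0.00108), beside -0.12 for PCED1B. The other 12 did not pass with enzalutamide. Among them, WAC beside BAMBI was at -0.02 (interval -0.11 to 0.06), DHX15 and CCDC149 beside SOD3 were at 0.03 and 0.06, and CHST3 and ASCC1 beside SPOCK2 were at 0.12 and -0.02. The largest values among the 12 were those of HOXA11-AS and HOTTIP, given above, and of LINC02338 beside PCDH17, at 0.63 (interval 0.03 to 1.24, edgeR adjusted p = 0.474) and 0.353 CPM in the higher group. LINC02338 was higher with the degrader than with the ligand (0.96, edgeR adjusted p = 0.017), as was PCDH17.

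The counts behind the 7 genes ran from 203 to 4344 reads per library. Counting error alone then gives a coefficient of variation of 1.52 to 7.02%, beside 2.62 to 19.5% between replicates of a group. The replicate value was below the counting error for BAMBI, PCDH17, HOXA13 and PCED1B with enzalutamide, for BAMBI with vehicle and for EVX1 with the degrader, and above it in the other groups of the 7 genes.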

How the data were processed

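RNA of 12 libraries (4 treatments, 3 replicates each) was made into stranded, poly(A)-selected libraries, per the labels' protocols. HISAT2, StringTie and GRCh37 are named in the submitters' processing notes; versions and counting settings are not given in the sources used here. The authors deposited, per the file headers, a read count, a TPM and an FPKM value and a normalized log2 value for each gene and library. Counts were whole numbers, with none below 1 for any gene in the table. Counts and the deposited TPM were used; FPKM and the deposited log2 values were not.

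Of 18668 genes, 17702 passed edgeR filterByExpr (minimum count 10, minimum total 15). Counts were scaled by TMM (factors 0.987 to 1.016), and edgeR's robust quasi-likelihood fit took group as its term over the 12 libraries (8 residual degrees of freedom). Calls are at a Benjamini-Hochberg adjusted p under 0.05 over all genes tested. Fold changes are log2 with SE or 95% confidence interval. CPM are TMM-scaled; correlations used log2 CPM with a prior count of 2. The script was tested on simulated data. The p-values set a difference between groups against the spread between these libraries, estimated with information shared over all genes tested.

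The 7 genes and the lists of related genes were chosen with earlier results of these data known. Genes named are the members, the genes just above and below the smallest member (at least 5 CPM in the higher group, no overlap, no uncharacterised symbol), the 3 genes most correlated with each member at a mean of at least 1 CPM, called list genes (all where 5 or fewer in a direction, otherwise the 4 with the smallest p), and family relatives; BTG2 and the genomic neighbours fall outside that rule and were added after values were seen. Alternatives were DESeq2 size factors, no filter, DESeq2, limma-voom, a fit of 2 groups, the replicate number as a block, and leaving out each library. RefSeq gene order (GRCh38.p14) matched 18551 of the 18668 gene IDs. The software was edgeR 4.0.16, DESeq2 1.42.0 and limma 3.58.1 under R 4.3.3.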

Additional observations from a re-analysis of the deposited data

How the results depend on the processing

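All 7 genes kept a positive enzalutamide difference within 1 SD (of log2 CPM within groups) of the reported one in the alternatives run. The same libraries chose the 7, so this is a description and nothing is read from it. For degrader against ligand, 4 members were called (3 to 4 with a library left out), with changes for HOXA13 and EVX1 given above, and 0 were lower throughout. Replicate numbers are shared by the groups, and same-numbered libraries deviated together above a correlation of 0.1 in 7 of 18 pairs (-0.03 to 0.21). The reported fit did not take the numbers as pairs. With the numbers as a block, more genes were called with enzalutamide and with the ligand, as given below. Whether same-numbered libraries share a batch was not tested. With the replicate block 5 members were called, EVX1 being added (adjusted p = 0.0312). With enzalutamide 62 genes were called higher (32 to 45 with a library left out, 123 by DESeq2, 154 with the replicate block) and 193 lower (141 to 173, and 399 with the replicate block). With the ligand 36 were higher (19 to 70 with a library left out, 97 by DESeq2, 125 with the replicate block, 21 with these groups alone) and 6 lower (2 to 7, 24 by DESeq2, 66 with the replicate block). List genes called with enzalutamide were 2 higher (1 with a library left out, 6 by DESeq2, 6 with the replicate block) and 4 lower (3 to 4, and 7 with the replicate block), and with the ligand 0 higher (1 by DESeq2, 2 with the replicate block) and 0 lower (1 with the replicate block). The libraries whose absence moved the enzalutamide count of higher genes by over 1.5 times were vehicle replicates 2 and 3 (37 and 34) and enzalutamide replicates 1 and 3 (36 and 32). For the ligand these were vehicle replicates 2 and 3 (21 and 19) and all of the ligand libraries (19, 22 and 70). The cause of these differences was not tested. Called genes numbered 2898 higher and 2897 lower for degrader against vehicle and 2535 and 2514 for degrader against ligand, and stayed within 1.5 times of these values in the alternatives run. Depth limits the low-count genes: for the 7, counting error alone was up to 7.02%.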
